A study of Mus musculus with 12 samples.

Results

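Heparan sulfate proteoglycans were followed here through the mRNAs of 8 core proteins, the proteins to which heparan sulfate chains are attached. The genes were taken by symbol from the expression tables and made up 8 of the 14851 genes listed: the glypicans Gpc1, Gpc4 and Gpc6, the syndecans Sdc1, Sdc2, Sdc3 and Sdc4, and Hspg2, which encodes perlecan. Glypicans are tied to the outer face of the cell membrane by a lipid (GPI) anchor, syndecans cross the membrane and bind scaffold proteins through a short cytoplasmic tail, and perlecan is a large secreted component of basement membranes. On all of them the sulfated chains bind growth factors such as FGF2 and VEGF-A and present them to their receptors, which is why these proteins are studied in endothelium, whose surface and basement membrane are rich in heparan sulfate. Messenger RNA levels say nothing directly of the amount of protein or of chain on the cell surface.

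The cells were 562 cells, a mouse line that became immortal spontaneously after isolation from cutaneous vascular tumors of a C57BL/6 animal in which tamoxifen-induced Scl-Cre had removed Tsc1 from the endothelium. All 4 groups therefore lacked Tsc1, although the labels give the control genotype as wildtype. The groups were control cells carrying an sgRNA against EGFP, and cells in which CRISPR-Cas9 with puromycin selection had been directed at Fip200 (gene symbol Rb1cc1), Atg5 or Atg7, named Fip200 KO, Atg5 KO and Atg7 KO. FIP200 acts in the complex that starts autophagosome formation, while ATG5 and ATG7 act in the conjugation of ATG8 proteins to the autophagosome membrane. Each group had 3 RNA-seq libraries, 12 in all. Per the study's methods, Fip200 was targeted with 2 sgRNAs and Atg5 and Atg7 with 1 each. More than 1 clone of Fip200 KO cells is described elsewhere in the study, and the labels do not say which sgRNA or clone a library came from. All cells come from 1 line, so p-values measure the spread among these libraries and not among animals. The growth medium of every group contained porcine heparin, itself a highly sulfated relative of heparan sulfate.

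Library totals ran from 17266926 to 23629730 reads assigned to genes, a 1.37-fold range. The labels call the tissue lymphatic endothelial cells. Of 12 pan-endothelial markers, 10 were at 8.21 RPKM or more in every library (Pecam1 at 265 to 539, Cdh5 at 116 to 805), whereas Vwf was at 0.0372 to 0.809 RPKM and Cldn5 ranged from 0.143 to 67.6. Of 6 lymphatic markers, Flt4, Lyve1 and Pdpn were at 31.7 RPKM or more throughout, while Mmrn1 was at 0.179 to 27.2, Reln at 0.00775 to 4.39 and Prox1, the transcription factor that defines lymphatic endothelium, at 0.0366 to 5.79 RPKM. RPKM counts the reads of a gene scaled for its length and for the library total, a level per length that can be set side by side between genes. Levels of Atg7 were 5.4, 2.64 and 8.34 RPKM in Atg7 KO against 18.4, 25 and 19.8 RPKM in control cells (log2 fold change −1.97, adjusted p of 0.0216). They were also below control in Atg5 KO at 9.99, 11.9 and 9.94 RPKM (−0.95, adjusted p of 0.0083), and Fip200 KO held 38.3, 12.4 and 8.23 RPKM. Rb1cc1 in Fip200 KO and Atg5 in Atg5 KO overlapped control; an edited gene can still be transcribed. Library names carry 3 prefixes, whose meaning no source gives. Control replicate 1 shared its prefix with all Fip200 KO libraries, control replicates 2 and 3 with Atg5 KO replicates 1 and 2, and Atg5 KO replicate 3 with all Atg7 KO libraries.

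The comparison of each KO with control asks how the core protein mRNAs differed when autophagy was blocked at the step named. Changes were tested with limma on log2(RPKM + 0.5), and a gene was called when its adjusted p, corrected over all genes tested, was at most 0.1 and its change was at least 2-fold either way, a log2 fold change of 1. In Atg5 KO cells Gpc1, Gpc6, Sdc1 and Sdc2 were called lower and none higher, so 4 of 8 members were called, against 6.94% lower and 4.31% higher (11.2% in all) of the 11833 genes tested. In Atg7 KO cells Gpc1, Gpc6, Sdc1 and Sdc2 were called lower and Sdc3 higher, so 5 of 8 were called, against 6.81% lower and 3.29% higher (10.1% in all) of 11784 genes. No member was called in Fip200 KO cells, where 1.64% of 11803 genes passed as lower and 0.347% as higher (1.98% together). That share over all genes was 5.14% without Fip200 KO replicate 3, 1.19% and 0.347% without Fip200 KO replicates 1 and 2, and 0.186% and 0.0847% without control replicates 2 and 3. In that comparison, 4 of the 8 had an unadjusted p under 0.05 in limma, as did 16.1% of all genes tested, and voom on recovered whole reads also called 0. Median log2 fold changes of the 8 members were −0.41 (Fip200 KO), −1.00 (Atg5 KO) and −0.89 (Atg7 KO), beside medians of 0.02, 0.06 and −0.01 over all genes tested. The members were chosen with earlier results of these data known, and Sdc1 is among the genes the study itself listed as lower in all 3 KO. Their counts beside the shares of all genes, here and below, are therefore a description and not a test. The 3 comparisons share the same 3 control libraries. Gpc1 reached the filter of 0.5 RPKM in 3 libraries through the controls only, and so did Gpc6 in the Atg5 KO and Atg7 KO comparisons, so a difference was built into their passing the filter. Without any filter on low values the counts were again 0, 4 and 5.

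**Figure D1:**
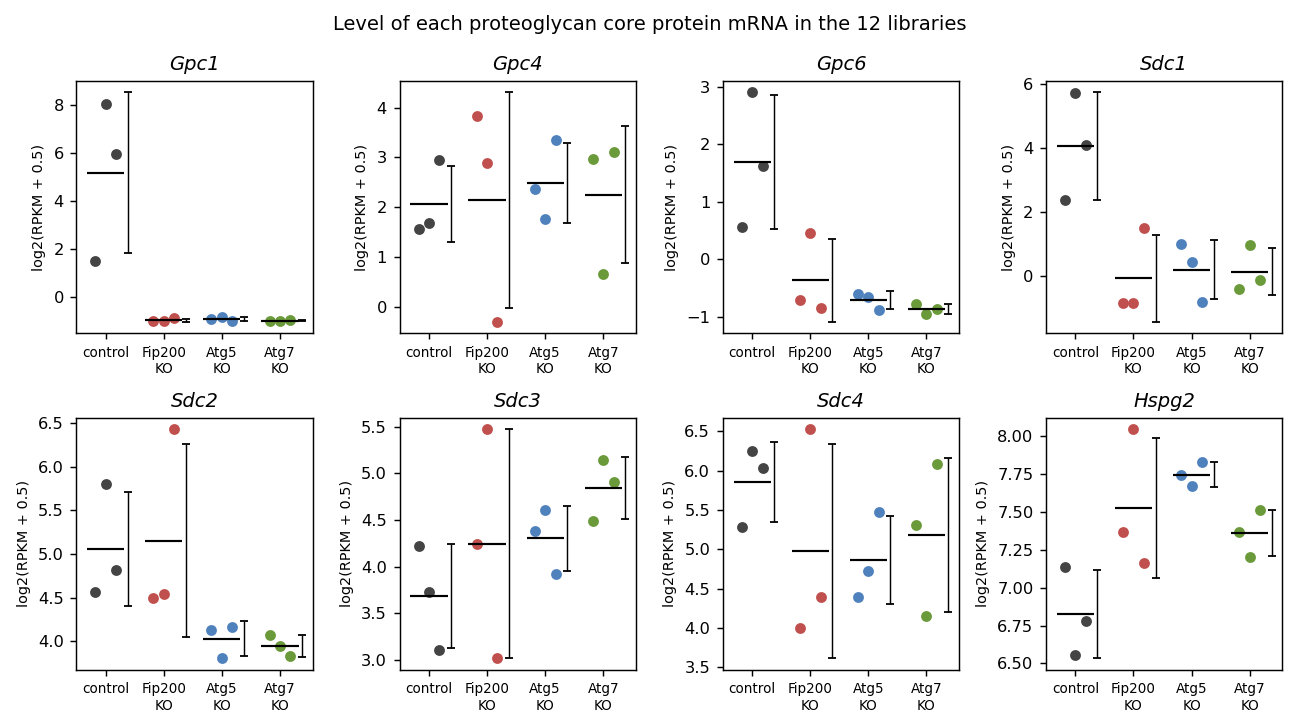
Levels of the 8 core protein mRNAs as log2(RPKM + 0.5), 1 panel per gene with its own vertical scale; points are libraries in replicate order from left to right, horizontal bars are group means and error bars are SD (n = 3). Gpc1, Gpc6 and Sdc1 lie lower in all 9 KO libraries than in any control library, and Hspg2 lies higher in all 9.

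Gpc1, the glypican best known from growth factor binding on vascular and tumor cells, stood at 2.32, 266 and 62 RPKM in control replicates 1, 2 and 3. It was at 0, 0 and 0.0385 RPKM in Fip200 KO cells, at 0.0292, 0.0547 and 0 in Atg5 KO cells, and at 0, 0 and 0.0138 in Atg7 KO cells. These levels stand for 156, 22356 and 4349 reads in the control libraries and for 3 reads in all over the Fip200 KO libraries, 6 over those of Atg5 KO and 1 over those of Atg7 KO. Every control library was thus far above every KO library, but the controls themselves spanned 115-fold, and replicate 2 held 80.6% of their summed level. Log2 fold changes on the log2(RPKM + 0.5) scale were −6.10 ± 1.48 (SE, n = 3 against 3) for Atg5 KO with an adjusted p of 0.0248, −6.16 ± 1.45 for Atg7 KO with an adjusted p of 0.0362, and −6.14 ± 1.45 for Fip200 KO with an adjusted p of 0.122. Because the added 0.5 limits these values, the ratio of reads was also taken against control replicate 1 alone, the lowest control. That ratio, adjusted for library totals, was 84.4 for Atg5 KO (95% exact counting interval 37.9 to 233), 169.7 for Fip200 KO (57 to 832) and 460.0 for Atg7 KO (81.4 to 18284). The intervals cover counting error only. The Gpc1 call in Atg5 KO was lost with voom (adjusted p of 0.201), and that in Atg7 KO with voom (0.109), without control replicate 3 (0.126) and without Atg7 KO replicate 1 (0.109). Without control replicate 2 the log2 fold changes were −4.65 for Atg5 KO, −4.72 for Atg7 KO and −4.69 for Fip200 KO. In Fip200 KO the call was reached with a pseudocount of 0.1 (−8.26, adjusted p of 0.0828), without control replicate 1 (log2 fold change −7.98, adjusted p of 0.0103), and with 1 fit of all 12 libraries (0.0192).

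Gpc6, a glypican related to Gpc4, was less abundant and followed the same order among the controls, with 0.98, 6.98 and 2.58 RPKM. Levels fell to 0.16, 0.136 and 0.0409 RPKM in the Atg5 KO libraries and to 0.0854, 0.0162 and 0.0506 in the Atg7 KO libraries, and were 0.112, 0.872 and 0.0538 in the Fip200 KO libraries. No KO library reached the lowest control, although Fip200 KO replicate 2 came close to it. Log2 fold changes were −2.41 ± 0.541 for Atg5 KO (adjusted p of 0.0198), −2.56 ± 0.538 for Atg7 KO (0.0279) and −2.07 ± 0.63 for Fip200 KO (0.191). The call in Atg5 KO stood in every one of the 14 alternatives that could be run. For Fip200 KO it was called in 1 fit of all 12 libraries (adjusted p of 0.0459). Without control replicate 2 the log2 values were −1.81, −1.96 and −1.46 for Atg5 KO, Atg7 KO and Fip200 KO. The Atg7 KO call was lost in 1 of 14, the fit that held the name prefix constant (adjusted p of 0.284). Over those 14 the log2 fold change in Atg7 KO ran from −5.87 to −1.87.

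Gpc4 showed no such pattern. Control libraries held 2.47, 2.69 and 7.23 RPKM, Fip200 KO 13.7, 6.92 and 0.314, Atg5 KO 4.68, 2.88 and 9.63, and Atg7 KO 7.27, 1.08 and 8.18. All groups overlapped, and the spread in Fip200 KO, 43.5-fold from lowest to highest, was the widest of the 4. Log2 fold changes were 0.42 for Atg5 KO, 0.18 for Atg7 KO and 0.07 for Fip200 KO, with 95% intervals of −0.76 to 1.61, −1.45 to 1.81 and −2.28 to 2.43, so changes in either direction remain within the error. With Gpc1 and Gpc6 low, Gpc4 made up 77.3% to 99.6% of the summed RPKM of the 3 glypicans in the 9 KO libraries. In the controls it made up 42.9%, 0.976% and 10.1%, and in replicates 2 and 3 Gpc1 took 96.5% and 86.3%.

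Among syndecans, Sdc1 is the member typical of epithelia and plasma cells, and its ectodomain is shed by proteases. Its control levels were 4.64, 52 and 16.7 RPKM, again highest in replicate 2 and lowest in replicate 1. Fip200 KO libraries held 0.0495, 0.0488 and 2.31 RPKM, Atg5 KO libraries 1.47, 0.842 and 0.0605, and Atg7 KO libraries 0.246, 1.44 and 0.401. Each KO library lay below every control library, with group means of 0.803 ± 1.31, 0.792 ± 0.708 and 0.694 ± 0.646 RPKM (SD, n = 3) against 24.4 ± 24.6 in control. Log2 fold changes reached −3.87 ± 0.852 for Atg5 KO (adjusted p of 0.0187), −3.93 ± 0.802 for Atg7 KO (0.0258) and −4.14 ± 0.948 for Fip200 KO (0.115). On the linear scale of RPKM + 0.5 these are 14.6-fold, 15.3-fold and 17.6-fold lower. Without control replicate 2 the log2 values were −3.04, −3.11 and −3.31 in the same order. Sdc1 kept its call in Atg5 KO in all 15 alternatives and in Atg7 KO in 14 of 15, losing it with the prefix term (adjusted p of 0.465). In Atg7 KO, Sdc1 ran from −4.92 to −3.11 on the log2 scale over those 15 alternatives. For Fip200 KO it was called in 1 fit of all 12 libraries (adjusted p of 0.0281), without Fip200 KO replicate 3 (log2 fold change −4.92, adjusted p of 0.0512) and without control replicate 1 (−4.99, adjusted p of 0.0757).

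Sdc2, the syndecan usually named as the endothelial and mesenchymal one, was at 23.1, 55.1 and 27.6 RPKM in control. It was at 17, 13.5 and 17.4 RPKM in Atg5 KO and at 16.4, 14.9 and 13.7 in Atg7 KO, all below the lowest control. Fip200 KO behaved otherwise, with 22, 22.8 and 85.6 RPKM, the last being the highest value of all 12 libraries. Log2 fold changes were −1.02 ± 0.314 in Atg5 KO (adjusted p of 0.049), −1.10 ± 0.313 in Atg7 KO (0.0585) and 0.10 ± 0.572 in Fip200 KO (0.947). Both calls sat close to the fold threshold and rested on control replicate 2: without it the values were −0.65 and −0.73. The Atg5 KO call was also lost without Atg5 KO replicate 1 (adjusted p of 0.109) or 2 (0.133), in 1 fit of all 12 libraries (0.166) and with the prefix in the fit (0.237). The Atg7 KO call was lost without control replicate 3 (0.127), Atg7 KO replicate 1 (0.134) or Atg7 KO replicate 3 (0.138), in 1 fit of all 12 libraries (0.137) and with the prefix in the fit (0.63). In Fip200 KO the sign itself turned without Fip200 KO replicate 3 (log2 fold change −0.54), control replicate 1 (−0.15) or control replicate 3 (−0.02).

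Sdc3, best known from neurons and muscle, was the only member called higher. Control levels were 18.1, 12.8 and 8.12 RPKM, and Atg7 KO levels of 22, 34.8 and 29.4 RPKM were all above them. Fip200 KO held 18.4, 43.9 and 7.63 RPKM and Atg5 KO 20.4, 23.9 and 14.7, both overlapping control. The log2 fold change was 1.16 ± 0.307 in Atg7 KO (adjusted p of 0.0497), 0.62 ± 0.303 in Atg5 KO (0.16) and 0.56 ± 0.601 in Fip200 KO (0.665). The Atg7 KO call did not hold without control replicate 2 (adjusted p of 0.118), control replicate 3 (0.134) or Atg7 KO replicate 3 (0.116), with 1 fit of all 12 libraries (0.151), with the replicate block (0.101) or with the prefix term (0.558).

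Sdc4, the syndecan of focal adhesions, was the most abundant syndecan in each control library, at 38.4, 75.5 and 65 RPKM. The Atg5 KO libraries held 20.5, 25.8 and 44 RPKM, the Atg7 KO libraries 39.1, 17.2 and 67.4, and the Fip200 KO libraries 15.5, 91.6 and 20.5, so each KO overlapped control. Changes were −0.99, −0.68 and −0.88 on the log2 scale in that order, with adjusted p of 0.0673, 0.365 and 0.515. The value in Atg5 KO fell just short of the fold threshold and passed it, with an adjusted p that also passed, in 5 of 15 alternatives. These were a pseudocount of 0.1 (−1.00), median-of-ratios scaling (−1.05), voom (−1.00), and leaving out control replicate 1 (−1.28) or Atg5 KO replicate 3 (−1.30).

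Hspg2 was the most abundant member on average in every group. Perlecan mRNA stood at 140.1, 93.7 and 109.6 RPKM in control cells, at 214, 203 and 227 in Atg5 KO cells, at 165, 147 and 182 in Atg7 KO cells, and at 165, 264 and 143 in Fip200 KO cells. All 9 KO libraries lay above the highest control library, by as little as 143 against 140.1 RPKM. Group means were 114 ± 23.6 RPKM for control, 214 ± 11.9 for Atg5 KO, 165 ± 17.6 for Atg7 KO and 191 ± 64.4 for Fip200 KO (SD, n = 3). The log2 fold changes of 0.92 ± 0.158, 0.54 ± 0.187 and 0.71 ± 0.284 had adjusted p of 0.00963, 0.0947 and 0.286 in that order. None reached the fold threshold, and the 1.89-fold difference in Atg5 KO passed it without control replicate 1 (1.08, adjusted p of 0.00574) and with the prefix in the fit (1.03, adjusted p of 0.0897).

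**Figure D2:**
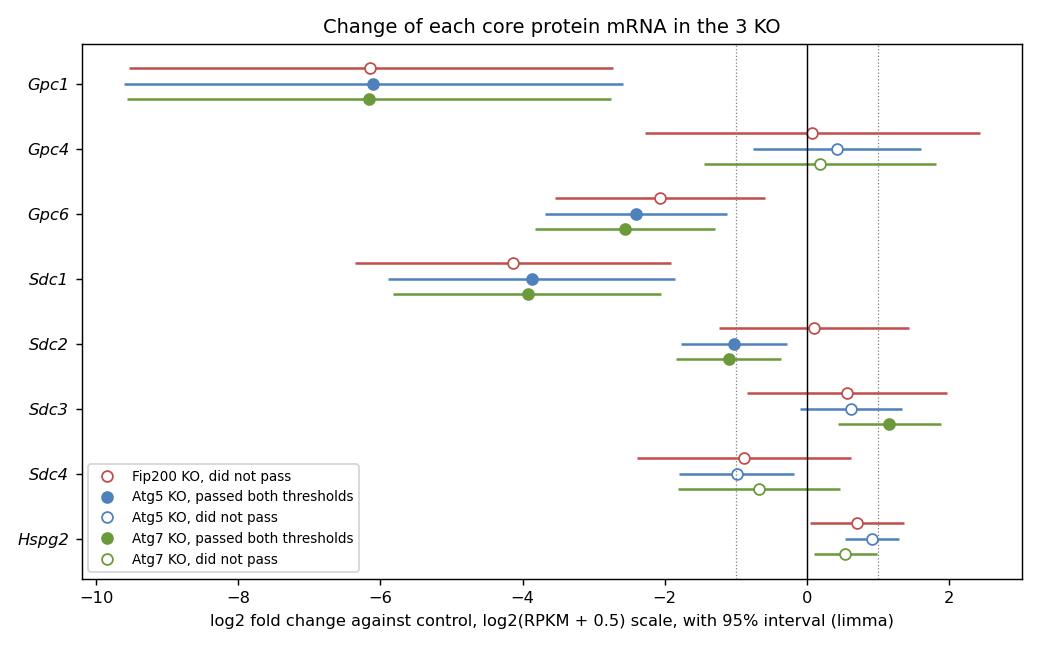
Log2 fold change of each core protein mRNA against control in the 3 KO, with limma's 95% interval (horizontal line); filled points passed both thresholds and dotted lines mark a log2 fold change of −1 and 1. The intervals of Gpc1, Gpc6 and Sdc1 lie below 0 in all 3 KO and those of Hspg2 lie above 0, while Gpc4 spans 0 in each.

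Counting libraries in place of fitted values, 3 members (Gpc1, Gpc6 and Sdc1) were lower in all 9 KO libraries than in all 3 control libraries, a pattern held by 7.28% of 12233 genes. Hspg2 was the 1 member higher in all 9, as were 6.02% of genes. Taken KO by KO, 4 members lay wholly below control for Atg5 KO (22.0% of genes tested), 4 for Atg7 KO (20.4%) and 3 for Fip200 KO (12.4%). Hspg2 lay wholly above control in each (28.4%, 19.2% and 11.7% of genes), joined by Sdc3 in Atg7 KO. An exact permutation test of 3 against 3 libraries cannot go below 0.1, the value that each non-overlapping member had.

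Among the members with a promoter window, Sdc1 was the 1 below and Hspg2 the 1 above control in all KO libraries, and their windows are shown to give the sequence in front of each. RefSeq promoter windows on GRCm38.p6, covering 250 bases before to 50 after the gene start, were at hand for 5 of the 8 members (Gpc4, Sdc1, Sdc3, Sdc4 and Hspg2). Both windows below are written 5′ to 3′ on the strand of the gene, here the plus strand, with capitals marking GC boxes (GGGCGG on either strand). The first is chr12:8771146-8771445 and the second chr4:137468553-137468852.
Sdc1: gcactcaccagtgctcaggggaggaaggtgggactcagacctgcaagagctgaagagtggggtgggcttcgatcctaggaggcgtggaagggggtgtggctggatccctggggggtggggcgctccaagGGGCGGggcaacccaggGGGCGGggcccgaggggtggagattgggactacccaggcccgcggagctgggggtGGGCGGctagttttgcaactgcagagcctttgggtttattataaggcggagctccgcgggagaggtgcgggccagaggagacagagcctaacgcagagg
Hspg2: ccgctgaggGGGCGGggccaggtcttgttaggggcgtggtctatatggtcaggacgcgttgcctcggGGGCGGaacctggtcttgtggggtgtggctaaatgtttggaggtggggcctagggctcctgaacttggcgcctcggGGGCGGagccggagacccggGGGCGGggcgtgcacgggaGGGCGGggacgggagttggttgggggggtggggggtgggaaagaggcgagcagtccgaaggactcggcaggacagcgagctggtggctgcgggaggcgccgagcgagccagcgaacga
The Sdc1 window held 3 GC boxes and the Hspg2 window 5, with G and C at 66.3% and 70.3% of bases. Sdc4 held 4 such boxes, Sdc3 3 and Gpc4 1, so every window read contained at least 1, as did 35.7% of the 32851 promoter windows searched. None of the 5 windows held a TATA box (TATAAA, in 13.6% of all windows), an AP-1 site (TGANTCA, 7.81%), an E-box (CACGTG, 7.15%) or a STAT site (TTCNNNGAA, 8.3%), searched on both strands. These are matches of letters in a short window and not bound sites, and the presence of GC boxes did not separate Sdc1 from Hspg2.

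The make-up of the 8 mRNAs together shifted with these changes. In control replicate 1 the summed level was 230.1 RPKM, of which Hspg2 made up 60.9% and Gpc1 1.01%. In control replicate 2 it was 565 RPKM, with 16.6% from Hspg2, 47.1% from Gpc1 and 9.2% from Sdc1, and control replicate 3 lay between them with 36.7%, 20.7% and 5.58% of 299 RPKM. Across the 9 KO libraries Hspg2 supplied 55.2% to 76.9%, and Gpc1 at most 0.0203%. By these shares control replicate 1 lay within the range of the KO libraries for Hspg2 but not for Gpc1.

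**Figure D3:**
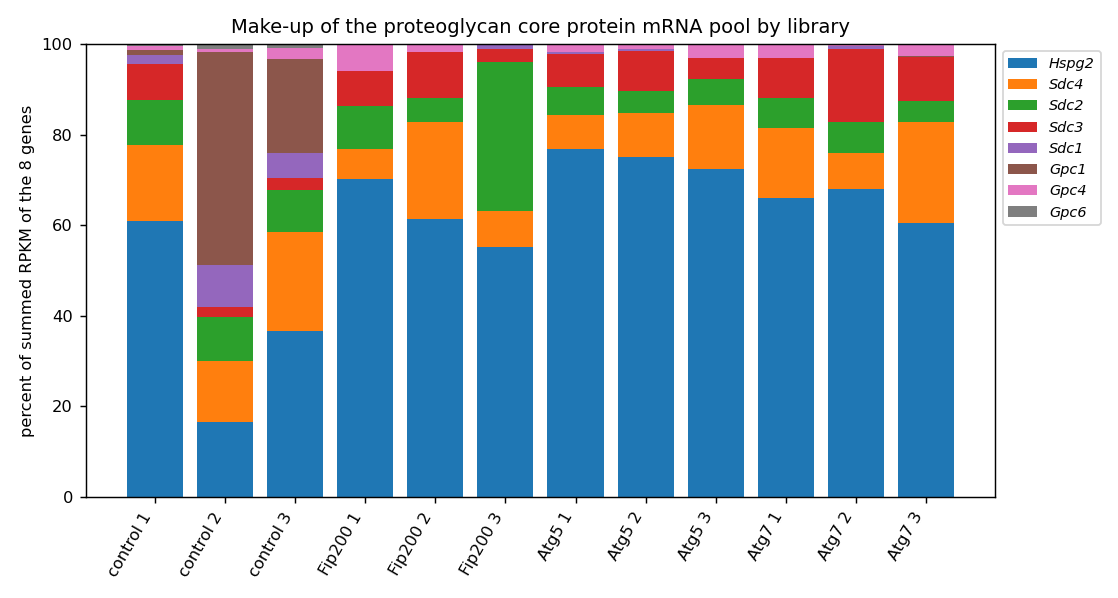
Share of each of the 8 genes in their summed RPKM, 1 bar per library; shares are percentages of levels per length and each bar adds to 100. Gpc1 takes 47.1% and 20.7% in control replicates 2 and 3 and at most 1.01% elsewhere, and Fip200 KO replicate 3 stands out by a Sdc2 share of 32.9%.

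Ranked by mean RPKM, the order in control cells was Hspg2, Gpc1, Sdc4, Sdc2, Sdc1, Sdc3, Gpc4 and Gpc6, with means of 114, 110.2, 59.7, 35.3, 24.4, 13, 4.13 and 3.51. All neighbours in that order overlapped in range except Sdc3 and Gpc4. In Atg5 KO it was Hspg2, Sdc4, Sdc3, Sdc2, Gpc4, Sdc1, Gpc6 and Gpc1, and Atg7 KO had the same order, with Hspg2 apart from all others in both. Fip200 KO placed Sdc2 second at 43.5 ± 36.5 RPKM, a mean carried by replicate 3, with its range overlapping that of Sdc4 at 42.5 ± 42.6. Among syndecans, Sdc4 led in all 3 control and all 3 Atg5 KO libraries, Sdc2 in Fip200 KO replicates 1 and 3, and Sdc3 in Atg7 KO replicate 2.

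The 3 KO were compared with each other in 1 fit of all 12 libraries. No member was called in any of the 3 comparisons, and neither was any other gene (0.00% of 12233 in each). Leaving out Fip200 KO replicate 3 changed this for both comparisons with Fip200 KO: without it 133 genes were lower and 165 higher in Atg5 KO than in Fip200 KO, and 204 lower and 200 higher in Atg7 KO than in Fip200 KO, still with no member among them. Leaving out any other single library gave at most 4 genes in any of the 3 comparisons. At an unadjusted p under 0.05, limma found 1 member (Sdc2) in Atg5 KO against Fip200 KO, 1 (Sdc2 again) in Atg7 KO against Fip200 KO and 0 in Atg7 KO against Atg5 KO, beside 7.58%, 7.49% and 4.59% of all genes. After adjustment voom also called 0. Sdc2 was lower by 1.12 on the log2 scale in Atg5 KO than in Fip200 KO (95% interval of the difference −2.14 to −0.11, adjusted p of 0.627). The corresponding difference for Atg7 KO was −1.20 (−2.22 to −0.19, adjusted p of 0.611). Leaving out Fip200 KO replicate 3 brought these differences to −0.49 and −0.57. Hspg2 was lower in all 3 Atg7 KO than in all 3 Atg5 KO libraries, by −0.38 (−0.88 to 0.12, adjusted p of 1). For Gpc1, Gpc6 and Sdc1 the differences between KO ran from −0.49 to 0.27, but the intervals are wide, reaching −2.62 to 2.49 for Gpc1 in Atg7 KO against Atg5 KO.

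Some mesenchymal markers took the same order as Gpc1, Gpc6 and Sdc1 among the controls. Of the 7 fibroblast and mesenchymal markers listed, 5 were highest in control replicate 2 of the 3 controls, and of 12 pan-endothelial markers 10 were lowest there. Dcn, which encodes the matrix proteoglycan decorin, was at 0.125, 56.9 and 15.2 RPKM in control replicates 1 to 3 and at most 0.989 in the KO libraries. Pdgfra followed with 0.113, 9.02 and 2.26 RPKM, and Col3a1 with 2.82, 143 and 23.1, although Col3a1 reached 34.3 in Fip200 KO replicate 2 and 31.3 in Atg5 KO replicate 3. The endothelial gene Cdh5 took the opposite order with 309.7, 116 and 271 RPKM, and Kdr did so with 65.3, 15.2 and 34.7. The smooth muscle, leukocyte and epithelial sums were not highest in control replicate 2, and neither was Gpc4. The lymphatic sum was highest there, at 318, 362 and 271 RPKM in control replicates 1 to 3, with Pdpn at 65.6, 227 and 139. Of the 6 lymphatic markers, 2 were highest in control replicate 2 and 3 were lowest there. Between groups the summed mesenchymal level overlapped, at 20.9 to 225 RPKM for control, 111 to 241 for Atg5 KO, 72.6 to 349 for Atg7 KO and 2.71 to 290.5 for Fip200 KO. Thy1 made up most of it in the KO libraries with high sums, and Col1a1 stayed at or below 0.476 RPKM in every library. Thy1 (17.7, 11.2 and 2.36 RPKM in control replicates 1 to 3) and Col1a2 (0.0202, 0.0162 and 0.00969) were instead highest in control replicate 1. In the KO libraries Thy1 ran from 0.21 to 346 RPKM. Col1a2, at 1 or 2 reads in each control, was at 0.102 to 1.54 RPKM in the KO libraries, above every control. The summed pan-endothelial level was 1316 to 3285 RPKM in control and 2395 to 3666 over the KO libraries. Smooth muscle, leukocyte and epithelial lists summed to at most 64.4, 263 and 10.6 RPKM, the highest single genes being Tagln at up to 51.1, Cd68 at up to 263 and Krt18 at up to 10.5 RPKM, while Myh11, Ptprc and Krt8 were at or below 0.307 RPKM throughout. The leukocyte sum lay wholly below control (34.5 to 91.8) in Atg5 KO (9.94 to 11.7) and Atg7 KO (7.06 to 27.1). Lymphatic sums lay wholly above control (271 to 362) in Atg5 KO (402 to 525) and Atg7 KO (381 to 516). In Atg5 KO the smooth muscle sum also lay above control (9.59 to 15.6 against 1.35 to 4.62). The epithelial sum there lay below it (1.84 to 5.72 against 6.19 to 10.6). Fip200 KO overlapped control in the leukocyte, lymphatic and smooth muscle sums. The part of these markers in the Gpc1, Gpc6 and Sdc1 results was not tested. In bulk RNA a smaller share of cells with a transcript and less transcript per cell cannot be told apart.

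Within a shared library-name prefix the lower levels of these 3 genes were again seen. Fip200 KO libraries against control replicate 1 alone gave log2 differences of −2.46 for Gpc1, −0.93 for Gpc6 and −2.44 for Sdc1. Atg5 KO replicates 1 and 2 against control replicates 2 and 3 gave −7.90, −2.89 and −4.21. In the same sets Hspg2 differed by 0.40 and 1.03, Sdc2 by 0.59 and −1.34, Sdc3 by 0.03 and 1.08, Sdc4 by −0.31 and −1.59, and Gpc4 by 0.57 and −0.25. No Atg7 KO library shares a prefix with a control, so prefix and Atg7 KO cannot be told apart directly, and when the prefix was added to the fit Gpc1 was the 1 member still called there (log2 fold change −7.88, adjusted p of 0.0106). Over all genes that fit called 0.311% for Atg7 KO. Gpc6, Sdc1, Sdc2 and Sdc3 lost their call in it but kept their sign. Over every alternative run for Atg7 KO, that fit included, Gpc6 ran from −5.87 to −1.87 and Sdc1 from −4.92 to −3.11. Sdc2 ran from −1.55 to −0.73 and Sdc3 from 0.87 to 1.99.

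The genes most like each called member were sought by Pearson's r of log2(RPKM + 0.5) over the 12 libraries, among 10497 genes with at least 2 RPKM in at least 3 libraries. The points share the control and KO grouping, so r is given as a description only. Nearest to Gpc1 were Twist2 (r = 0.97), a transcription factor of mesenchymal cells, Sat1 (0.96) and Slc35f5 (0.95). Twist2 stood at 7.03, 62.7 and 27.4 RPKM in control and at most 0.504 in the KO libraries, the order of Gpc1 itself. Over ranks the likeness of Twist2 to Gpc1 was weaker (Spearman's rho = 0.53), with Gpc1 at 0 reads in 5 of the 9 KO libraries. Gpc6 was nearest to Tbck (r = 0.97), Etv1 (0.96) and Kif21b (0.95), and Sdc1 to Tmem161a (0.98), Zfp622 (0.95) and Colgalt1 (0.95). For Sdc2 they were Rtn4 (0.90), Scyl3 (0.89) and March6 (0.88), and for Sdc3 Mboat2 (0.91), Prune2 (0.89) and Gnai2 (0.89). Without the 2 libraries farthest from the median of Sdc2, r with Rtn4 fell to 0.67, so that likeness rests in part on those libraries. Between members, Gpc1 had an r of 0.95 with Gpc6 and 0.92 with Sdc1 over the 12 libraries. Gpc1 had 0 to 4 reads in each KO library, too few to read a likeness among the KO libraries alone.

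The enzymes and partners that build, edit and remove heparan sulfate were followed in 7 lists of 76 genes, of which 64 were listed in the tables. Of the genes tested, 4 of 57 were called for Atg5 KO (7.02%), 7 of 57 for Atg7 KO (12.3%) and 2 of 56 for Fip200 KO (3.57%), beside 11.2%, 10.1% and 1.98% of all genes. The shares in Atg5 KO and Atg7 KO were thus near those of all genes. Median log2 fold changes over the 7 lists were −0.23, −0.32 and −0.11 in the same order, beside 0.06, −0.01 and 0.02 over all genes tested. The lowest list medians were those of the other core proteins (−0.51, −0.99 and −1.01). Linker and chain polymerization stood at −0.36, −0.46 and −0.48, and precursor supply at −0.03, −0.10 and 0.15. Among other proteins that carry heparan sulfate, Agrn, the basement membrane protein agrin, fell in Fip200 KO by 1.68 on the log2 scale (adjusted p of 0.0995), a call that held in 4 of 15 alternatives. Its levels there were 12.5, 28.1 and 10.6 RPKM against 45.8, 54.3 and 53.3 in control. Gpc2 fell by 2.37 in Fip200 KO (adjusted p of 0.0395) and by 1.64 in Atg7 KO (0.0252), from 2.69, 2.64 and 3.1 RPKM in control. Its Fip200 KO call was lost with the prefix term (adjusted p of 0.258), without control replicate 2 (0.162) or 3 (0.25) and without Fip200 KO replicate 2 (0.133), and its Atg7 KO call with the prefix term (−0.28, 0.929). Srgn, serglycin, which is the core protein of secretory granules, fell by 1.77 in Atg5 KO (adjusted p of 0.0113) and by 1.28 in Atg7 KO (0.0308). Each Srgn call held in 14 of 15 alternatives. Both were lost with the prefix term, at −1.37 in Atg5 KO (adjusted p of 0.15) and −0.10 in Atg7 KO (0.977).

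**Figure D4:**
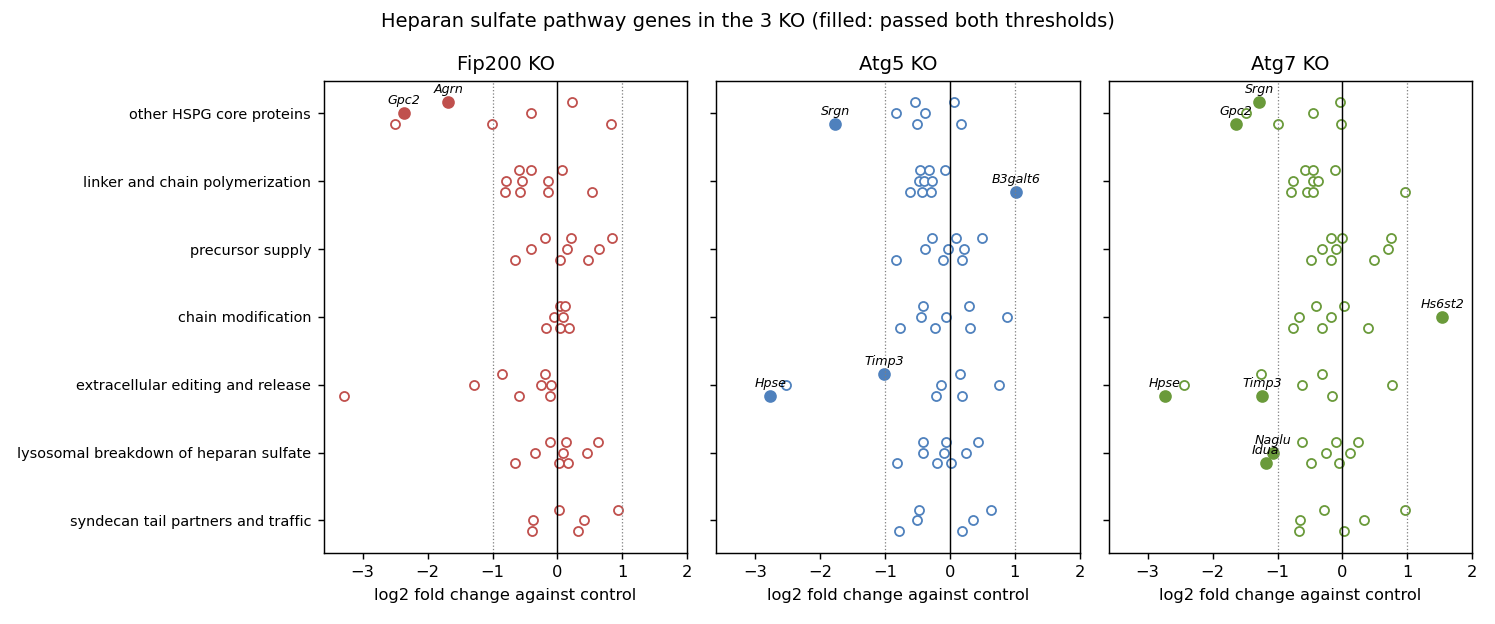
Log2 fold change against control of each gene tested in the 7 heparan sulfate pathway lists, 1 panel per KO; each point is a gene, filled points with names passed both thresholds, and dotted lines mark −1 and 1. Most points lie between the dotted lines, and Hpse is the lowest of the called genes in Atg5 KO and Atg7 KO.

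Of the 11 genes for the linker and chain polymerization, 10 were tested in each KO and 1 was called once: B3galt6, which adds the second galactose of the linker, rose by 1.02 in Atg5 KO (adjusted p of 0.0574), a call that held in 8 of 15 alternatives. Neither Ext1 nor Ext2, which together form the polymerase, was called, with log2 fold changes of −0.81 to −0.40 and −0.79 to −0.47. None of the 9 precursor supply genes tested was called in any KO. Bpnt2 (Impad1 in the tables), a phosphatase of the sulfate donor pathway named here after its values were seen, was at 22.8 to 35.7 RPKM over the 9 KO libraries against 18.1 to 22.4 in control, with log2 fold changes of 0.48 to 0.64. Of the chain modification genes, Hs6st2, a 6-O-sulfotransferase, rose by 1.54 in Atg7 KO (adjusted p of 0.0519), to 12, 4.2 and 11 RPKM from 2.07, 3.78 and 1.98 in control. That call held in 8 of 15 alternatives, and the value was −0.35 with the prefix term. No other gene of that list was called in any KO, Ndst1 and Hs6st1 included.

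Among extracellular editing and release genes, Hpse, the heparanase that cuts the chains, was called lower in Atg5 KO (−2.77, adjusted p of 0.0337) and in Atg7 KO (−2.74, 0.0627), calls that held in 14 and 8 of 15 alternatives. Its control levels of 3.45, 25.2 and 4.59 RPKM were again highest in replicate 2. Hpse was at 1.01, 1.23 and 0.119 RPKM in the Atg5 KO libraries, at 0.836, 0.0352 and 1.92 in those of Atg7 KO and at 1.73, 9.55 and 1.07 in those of Fip200 KO. Timp3, a metalloproteinase inhibitor held in the matrix by its binding to heparan sulfate, fell by 1.01 in Atg5 KO (adjusted p of 0.0114) and 1.24 in Atg7 KO (0.0319), calls that held in 11 and 13 of 15 alternatives. Sulf2, an extracellular 6-O-endosulfatase named here after its values were seen, was at 1.96, 43.3 and 17.8 RPKM in control, the same order as Gpc1. It was at 0.152 to 5.54 RPKM over the 9 KO libraries and was not called (adjusted p of 0.112 to 0.194).

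Of 9 lysosomal genes that break heparan sulfate down, Idua (−1.18, adjusted p of 0.0295) and Naglu (−1.07, 0.0236) were called lower in Atg7 KO, in 14 and 11 of 15 alternatives, and none was called in the other KO. Idua removes iduronate and Naglu removes N-acetylglucosamine from the chain end. Naglu in control was at 27, 21.9 and 17.8 RPKM and in Atg7 KO at 10.5, 8.52 and 11.7, without overlap, while Fip200 KO replicate 1 held 69.3. None of the 6 tested syndecan tail partners and traffic genes was called in any KO.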

How the data were processed

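RNA-seq was made from 562 cells in 4 groups of 3 libraries each. Groups came from the sample titles. Per the labels, total RNA was used with a directional kit, and the submitters' processing notes name TopHat2 and edgeR; the genome build is not given in the sources used here. The deposited RPKM values, which the authors made from reads per gene, were used as they stand. The deposited baseMean columns, a signal averaged by the authors, served only to recover whole reads: all 14831 genes with reads gave whole numbers within 0.01, and 20 genes had none. Columns holding the authors' own comparisons (fold change, p-value and adjusted p) were set aside, and 0 sample columns were left unmapped. Each table was joined by gene.

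The members and lists were chosen with earlier results of these data known. Tests used limma 3.58.1 in R 4.3.3 (moderated, with a trend) on log2(RPKM + 0.5), for genes with at least 0.5 RPKM in at least 3 of the libraries compared, with Benjamini-Hochberg adjustment. KO against control used 6 libraries and KO against KO all 12. Fold changes on this scale understate the change of low genes. Alternatives were other pseudocounts (0.1 and 1) and filters, median-of-ratios scaling, voom, other sets of libraries, a replicate block, a term for the prefix of library names, and leaving out each library, with the genes tested kept as in the full set. All 8 members are named, as are pathway genes called in at least 1 KO, and for called members the 3 genes of highest Pearson r. Correlations and figures used Python 3.11.15. Totals of 17266926 to 23629730 reads set the counting precision, and 3 reads was taken as the floor. Replicates differed by more than sampling noise in every group. Numbers shared between groups did not pair the libraries.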

Additional observations from a re-analysis of the deposited data

Results flagged for a closer look

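Mmp14, which encodes a membrane metalloproteinase that can shed syndecan-1, was set apart because its libraries moved in opposite directions in 2 KO. It was at 80.5, 89.7 and 74.2 RPKM in Atg5 KO (mean 81.5), all above the control libraries at 50.3, 53.8 and 40.2 RPKM, and at 38.7, 22.6 and 33.9 RPKM in Atg7 KO, all below them. Fip200 KO libraries overlapped control at 28.9, 64.1 and 47 RPKM. Against control the log2 fold change was 0.76 in Atg5 KO (limma adjusted p of 0.0119) and −0.62 in Atg7 KO (0.112), so Mmp14 was called in neither. Of all genes tested, 28.4% lay wholly above control in Atg5 KO and 20.4% wholly below it in Atg7 KO. The share with both was not counted. The difference between Atg7 KO and Atg5 KO was −1.38 on the log2 scale (95% interval −1.99 to −0.76), and limma gave an adjusted p of 0.719 for it over all genes, with an unadjusted p of 0.000411. No core protein gene moved in opposite directions in this way.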

How the results depend on the processing

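The number of core protein genes called changed with the setting. In Fip200 KO it was 0, and 1 with a pseudocount of 0.1, 3 with 1 fit of all 12 libraries (where the share of all genes called rose from 1.98% to 4.97%) and 0 to 2 on leaving out single libraries. In Atg7 KO it was 5, and 3 with 1 fit of all 12 libraries, 1 with the name prefix in the fit (all genes from 10.1% to 0.311%) and 2 to 5 on leaving out single libraries. In Atg5 KO it was 4, between 3 and 5 with all libraries kept and 3 to 6 without single libraries, but the genes differed: the prefix term lost Sdc2 (adjusted p of 0.237) and gained Hspg2 (1.03, 0.0897), voom lost Gpc1 (0.201) and gained Sdc4 (−1.00, 0.072), and 1 fit of all 12 libraries lost Sdc2 (0.166). The 3 comparisons between KO gave 0 in every alternative. Pathway genes called in Fip200 KO went from 2 to 1 with a pseudocount of 0.1, no filter, the filter at 2 RPKM, median-of-ratios scaling or voom, to 3 with 1 fit of all 12 libraries, to 0 with the prefix term, and to 0 to 4 without single libraries. In Atg5 KO they ranged from 2 to 5 without single libraries, and in Atg7 KO they went from 7 to 1 with the prefix term and 5 to 8 without single libraries. The cause was not tested.

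Among the core protein genes, the sign changes found were in comparisons where the gene was not called. Of the called pathway genes, Hs6st2 in Atg7 KO turned negative with the prefix term (−0.35, adjusted p of 0.963). Gpc4 turned negative in Fip200 KO with a pseudocount of 0.1 (−0.13) and voom (−0.27), and with the prefix term in Atg5 KO (−0.25) and Atg7 KO (−1.34). Without single libraries its log2 fold change ran from −0.00 to 0.87 for Atg5 KO, −0.77 to 1.29 for Fip200 KO and −0.25 to 0.97 for Atg7 KO. In Fip200 KO that of Sdc2 ran from −0.54 to 0.47 and that of Sdc3 from −0.05 to 1.17. Hspg2 in Atg7 KO against Fip200 KO ran from −0.35 to 0.09, and was 0.18 with the prefix term. Gpc1, Gpc6, Sdc1 and Sdc4 kept a negative sign and Hspg2 a positive one against control in every alternative run, but Gpc6 was not tested under the filter at 2 RPKM, which it missed.

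Replicate numbers did not pair the libraries: correlations of same-numbered deviations between groups ran from −0.5 to 0.25. With the replicate number as a block, members called were 4 for Atg5 KO, 0 for Fip200 KO and 4 for Atg7 KO, where Sdc3 lost its call (adjusted p of 0.101), and pathway genes called were 5, 1 and 5. Over all genes that fit called 817 lower and 505 higher of 11833 for Atg5 KO. It called 80 lower and 13 higher of 11803 for Fip200 KO (0.788%, from 1.98%), and 728 lower and 343 higher of 11784 for Atg7 KO. Depth limited Gpc1, which had at most 4 reads in any KO library, so that differences between KO were not detectable for it.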
